A study of Mus musculus with 2 samples.

Results

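The 10 genes described here are known from fat cells: the hormone genes Adipoq, Lep and Retn, the secreted protease gene Cfd, the lipid droplet genes Plin1, Cidec and Cidea, the enzyme gene Pck1, the fatty acid carrier gene Fabp4 and the transcription factor gene Pparg. They were taken by symbol from a table of 55536 genes, and were chosen by their measured level, which was higher in 1 of the 2 libraries. All 10 had a row in the gene table and in both transcript tables of each library. The tissue was gastrocnemius, the large calf muscle, from 36 day old female B6CASTF1/J mice, which are first-generation hybrids of a laboratory strain and a castaneus strain. Total RNA (300 ng a library, with synthetic spike-in RNAs) was sequenced as a replicate 1 and a replicate 2 library, which form the study's 1 group. The labels give no treatment or second genotype, and they share a strain-level donor without saying whether the tissues are of different animals, so some of the difference between libraries may be technical. No condition can be tested and no p-value is given: the members' ratio between the libraries is what chose them and is given as a description.

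White fat cells store triglyceride in a large droplet, whose surface is coated and enlarged by droplet proteins, and they secrete hormones that act on appetite, insulin response and the complement system. The nuclear receptor encoded by Pparg, together with factors of the C/EBP family, drives the differentiation of these cells and the transcription of many of their genes. In skeletal muscle, fat cells lie between the fibres and along vessels and nerves, and mature fibres themselves also hold small droplets and burn fatty acids.

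The gene table assigned 37491975 expected counts (reads shared out among genes by estimation) to genes in the replicate 1 library and 40461329 in the replicate 2 library, and 11264 genes in replicate 1 and 11340 in replicate 2 had a TPM of at least 1. TPM is a level corrected for transcript length and library size. The muscle label fitted the fibre markers, which summed to 129800 TPM in replicate 1 against 96570 TPM in replicate 2, and were led by Acta1, skeletal actin, at 26410 TPM in replicate 1 against 21414 TPM in replicate 2. Ckm, muscle creatine kinase, came next at 23121 TPM in replicate 1 against 16462 TPM in replicate 2. Mb, myoglobin, a fibre marker named after its values were seen, was at 41.5 TPM in replicate 1 against 1324 TPM in replicate 2. The libraries also stood apart in other markers. All 8 slow fibre markers were over 2-fold higher in replicate 2, beside 4.63% of the 14996 genes whose count averaged 10 or more. They summed to 16.4 TPM in replicate 1 against 2814 TPM in replicate 2. Myl2 and Myh7, the slow myosin chains, were at 0.36 and 0.24 TPM in replicate 1 against 666 and 472 TPM in replicate 2.

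In the replicate 1 library the fat cell genes summed to 373 TPM and in the replicate 2 library to 116 TPM. They drew 11801 counts in replicate 1 (0.0315% of its gene counts) and 3339 in replicate 2 (0.00825%). In bulk tissue, fewer cells of a type and less RNA per cell cannot be told apart. Cfd and Fabp4 made up 76.2% of the summed TPM in replicate 1 and 92.0% in replicate 2. Without Fabp4 the other genes summed to 247 TPM in replicate 1 against 27.9 TPM in replicate 2. A TPM of at least 1 was reached by 9 of the genes in replicate 1 and by 7 in replicate 2. Cidea was below 1 in both libraries, and Lep and Retn in replicate 2.

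**Figure D1:**
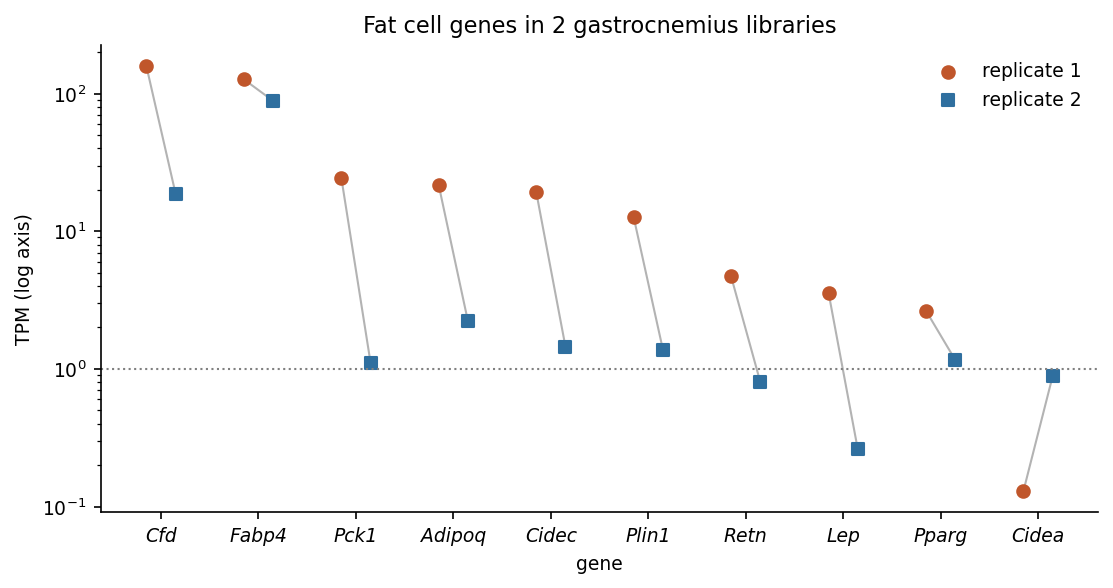
Deposited TPM (log axis) of each fat cell gene in the replicate 1 library (circles) and the replicate 2 library (squares), joined by a line per gene, with a dotted line at 1 TPM. Lines slope down steeply for 7 genes and little for Fabp4 (127 TPM in replicate 1, 88.4 in replicate 2) and Pparg (2.64 in replicate 1, 1.16 in replicate 2); the line of Cidea slopes up (0.13 in replicate 1, 0.89 in replicate 2).

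The order of the levels differed between the libraries. By mean TPM over the libraries (± SD, n = 2) Fabp4 came first at 108 ± 27.1, followed by Cfd at 88.2 ± 98.4, Pck1 at 12.8 ± 16.5, Adipoq at 11.9 ± 13.6 and Cidec at 10.4 ± 12.6. Then came Plin1 at 7.01 ± 7.95, Retn at 2.75 ± 2.75, Lep at 1.91 ± 2.33, Pparg at 1.90 ± 1.05 and Cidea at 0.510 ± 0.537. Neighbours in this order had overlapping values in the libraries, except Pparg and Cidea. Within replicate 1 the order ran Cfd, Fabp4, Pck1, Adipoq, Cidec, Plin1, Retn, Lep, Pparg and Cidea. Within replicate 2 it ran Fabp4, Cfd, Adipoq, Cidec, Plin1, Pparg, Pck1, Cidea, Retn and Lep, so that Pck1 stood in a lower place and Pparg and Cidea in higher ones. Levels and order depended on the table: by reads-based TPM the genes summed to 587 in replicate 1 and 159 in replicate 2, and the order by mean was Fabp4, Cfd, Adipoq, Cidec, Pck1, Plin1, Pparg, Retn, Lep and Cidea. In that table replicate 1 ran Cfd, Fabp4, Adipoq, Cidec, Pck1, Plin1, Lep, Pparg, Retn and Cidea, and replicate 2 ran Fabp4, Cfd, Adipoq, Pparg, Cidec, Plin1, Pck1, Cidea, Retn and Lep. Levels are from the alignment-based gene table unless another is named.

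The ratio of each gene between the libraries was taken as replicate 1 over replicate 2 from counts scaled by TMM, a method that sets the bulk of the genes level. Of the 10 genes, 8 were over 2-fold higher in replicate 1, beside 3.09% of the 14996 genes whose count averaged 10 or more. Cidea was over 2-fold higher in replicate 2, beside 4.63% of those genes. Over 4-fold higher in replicate 1 were 7 of the 10, beside 0.714%, and over 4-fold higher in replicate 2 was Cidea, beside 1.47%. These shares describe the background only, since the ratio chose the genes. The 2-fold shares, 3.09% for replicate 1 and 4.63% for replicate 2, are also the background of every list count given below. Their median log2 ratio was 3.01, while the median of all 14996 genes was 0.002 and the middle 90% of them lay between -0.96 and 0.75. All 10 passed the mean count of 10, with Cidea (16.5), Retn (66.0) and Pparg (99.5) the lowest. Intervals given with the ratios are 95% exact (Clopper-Pearson) intervals of the rounded expected counts. They cover counting error only and not the spread between tissues. No molecular identifiers are stated for these reads, so copies of the same molecule may be counted again and the intervals may be too narrow. Scaling by the spike-ins moved the median of all genes to -0.39, and list medians near 0 have no fixed sign.

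**Figure D2:**
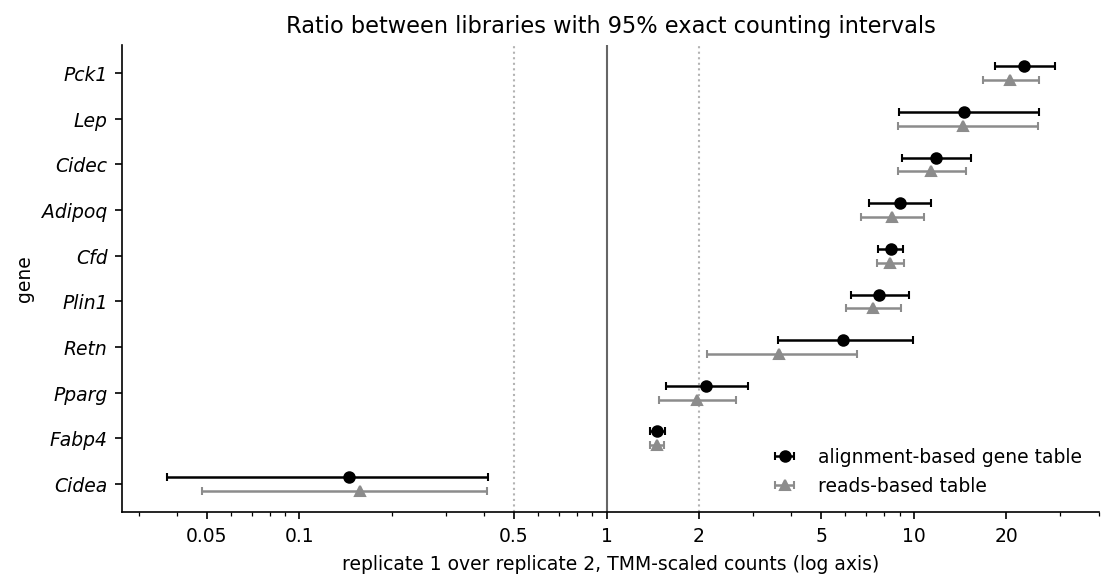
Ratio of each fat cell gene, replicate 1 over replicate 2, of TMM-scaled counts (log axis), from the alignment-based gene table (circles) and the reads-based table (triangles), with 95% exact counting intervals as bars and dotted lines at a 2-fold difference. Pck1 is at the top at 22.9-fold, Fabp4 lies at 1.47-fold, and Cidea lies left of 1 in both tables.

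Adipoq encodes adiponectin, a hormone that raises insulin sensitivity, and lies on chromosome 16 (23146536 to 23158028, plus strand, mm10). It had 729 counts and 21.5 TPM in replicate 1, against 85 counts and 2.21 TPM in replicate 2. Replicate 1 was the high library, at 8.99-fold (7.18 to 11.4), and Adipoq ranked 2276 by TPM there, against 9197 in replicate 2. Lep encodes leptin, the hormone that reports fat stores to the brain, and lies on chromosome 6 (29060220 to 29073877, plus strand). Its 237 counts and 3.56 TPM in replicate 1 stood against 17 counts and 0.26 TPM in replicate 2, a ratio of 14.6-fold (8.94 to 25.5) whose width reflects the 17 counts. Leptin RNA was 0.166 of adiponectin RNA by TPM in replicate 1 and 0.118 in replicate 2, and 0.123 in replicate 1 and 0.0497 in replicate 2 by the reads-based TPM. The bases just before both hormone genes' RefSeq starts (build GRCm38.p6, 5′ to 3′) are shown because these are the best known hormone genes of fat cells. Capitals mark CCAAT on either strand in Adipoq, and GGGCGG and TTGCNNAA in Lep, the last being a form of the site bound by C/EBP factors.
Adipoq, chr16:23146286-23146535, plus strand: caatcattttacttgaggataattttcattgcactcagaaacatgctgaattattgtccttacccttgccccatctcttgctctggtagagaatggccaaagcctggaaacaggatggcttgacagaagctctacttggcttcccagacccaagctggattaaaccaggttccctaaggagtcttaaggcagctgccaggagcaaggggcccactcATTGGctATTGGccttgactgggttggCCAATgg
Lep, chr6:29059971-29060219, plus strand: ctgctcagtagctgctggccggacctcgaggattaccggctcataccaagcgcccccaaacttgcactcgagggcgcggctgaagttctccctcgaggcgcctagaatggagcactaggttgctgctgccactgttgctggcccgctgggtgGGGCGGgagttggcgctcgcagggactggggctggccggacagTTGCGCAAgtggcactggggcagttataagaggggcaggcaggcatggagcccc
The Adipoq window held CCAAT 3 times, beginning 34, 27 and 7 bases before the start, of which the first 2 lie on the other strand and read ATTGG. In the Lep window GGGCGG began 98 bases and TTGCGCAA, which matches TTGCNNAA on both strands, began 55 bases before the RefSeq start.

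Cfd encodes adipsin, or complement factor D, a protease that fat cells secrete and that activates the alternative complement pathway. It lies on chromosome 10 (79890853 to 79892655, plus strand). With 3929 counts and 158 TPM in replicate 1, against 490 counts and 18.6 TPM in replicate 2, it was the gene with the most counts in replicate 1 and its ratio of 8.41-fold (7.65 to 9.26) was close to that of Adipoq. Per adiponectin TPM there were 7.34 of Cfd in replicate 1 and 8.44 in replicate 2. Retn encodes resistin, a hormone that in mice is made by fat cells and opposes insulin, and lies on chromosome 8 (3655770 to 3660110, plus strand). It had 112 counts and 4.69 TPM in replicate 1, against 20 counts and 0.80 TPM in replicate 2, or 5.87-fold (3.63 to 9.98). Retn was also the gene whose ratio moved most with the quantification: the reads-based table gave it 63.1 counts in replicate 1 against 17.7 in replicate 2, or 3.65-fold (2.13 to 6.54).

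The droplet genes split by family member. Plin1 encodes perilipin 1, the coat protein of the large droplets of fat cells, and lies on chromosome 7 (79720218 to 79732903, minus strand). It had 714 counts and 12.6 TPM in replicate 1, against 97 counts and 1.38 TPM in replicate 2, and was 7.72-fold (6.24 to 9.64) higher in replicate 1. Cidec encodes the droplet fusion protein also called FSP27 and lies on chromosome 6 (113424634 to 113435760, minus strand). Its 755 counts and 19.3 TPM in replicate 1 stood against 67 counts and 1.45 TPM in replicate 2, which is 11.8-fold (9.20 to 15.4). Cidec RNA was 1.53 times Plin1 RNA by TPM in replicate 1 and 1.05 times in replicate 2.

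Cidea, a relative of Cidec that is known from brown and beige fat in mice, was higher in replicate 2. It had 4 counts and 0.13 TPM in replicate 1, against 29 counts and 0.89 TPM in replicate 2. Replicate 2 was higher by 6.91-fold (2.43 to 27.1), an interval as wide as the 4 counts make it. By TPM, Cidea was 0.00675 of Cidec in replicate 1 and 0.614 in replicate 2. The antisense transcript B430212C06Rik, which overlaps Cidea, had 0 counts in replicate 1 and 5 in replicate 2. Ucp1, the uncoupling protein that defines brown fat, had 0 counts in both libraries, which allows a level of up to 0.0800 CPM (counts scaled to a common total) in replicate 1 and 0.0741 CPM in replicate 2.

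Pck1 encodes cytosolic phosphoenolpyruvate carboxykinase, which makes the glycerol backbone of triglyceride in fat cells and glucose in the liver, and lies on chromosome 2 (173153048 to 173159273, plus strand). It had the largest ratio of the 10 genes, with 1859 counts and 24.4 TPM in replicate 1 against 85 counts and 1.11 TPM in replicate 2, or 22.9-fold (18.4 to 28.8). Per adiponectin TPM, there was 1.14 of Pck1 in replicate 1 and 0.502 in replicate 2, but 0.754 in replicate 1 and 0.374 in replicate 2 by the reads-based table, where Pck1 was below Adipoq in both libraries. The interval of its ratio lies above those of Adipoq, Cfd, Plin1, Cidec and Retn and overlaps that of Lep. The bases before its first annotated exon are shown since cyclic AMP is a known inducer of this gene, and capitals mark ACGTCA, which is TGACGT, the core of the cyclic AMP response element, on the other strand.
Pck1, chr2:173152823-173153047, plus strand: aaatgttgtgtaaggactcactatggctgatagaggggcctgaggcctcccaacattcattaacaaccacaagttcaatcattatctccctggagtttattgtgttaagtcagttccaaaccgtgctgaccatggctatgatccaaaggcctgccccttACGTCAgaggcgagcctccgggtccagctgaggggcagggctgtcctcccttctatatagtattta
That match began 91 bases before the RefSeq start.

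Fabp4, the carrier that binds fatty acids in the cytosol of fat cells and is also made by endothelial cells of capillaries, lies on chromosome 3 (10204088 to 10208576, minus strand). It differed little: 3329 counts and 127 TPM in replicate 1, against 2383 counts and 88.4 TPM in replicate 2, or 1.47-fold (1.39 to 1.54). Its rank by TPM was 438 in replicate 1 and 627 in replicate 2, the closest ranks among the 10 genes. Fabp4 RNA was 5.90 times adiponectin RNA by TPM in replicate 1 and 40.0 times in replicate 2, or 3.80 times in replicate 1 and 27.0 times in replicate 2 by the reads-based table. The endothelial list is given beside it: all 10 markers lay within 2-fold between the libraries, with a median log2 ratio of -0.15 and sums of 81.8 TPM in replicate 1 against 93.1 TPM in replicate 2. Gpihbp1, which holds lipoprotein lipase on capillary walls, and Cdh5, a junction protein of endothelium, were at 15.3 and 14.6 TPM in replicate 1 against 16.9 and 15.8 TPM in replicate 2. The part of endothelial cells in the Fabp4 level was not tested.

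Pparg lies on chromosome 6 (115360951 to 115490399, plus strand). It had 133 counts and 2.64 TPM in replicate 1, against 66 counts and 1.16 TPM in replicate 2, or 2.11-fold (1.56 to 2.88), so its interval included 2-fold and lay below those of the other 7 genes that were over 2-fold higher in replicate 1. An antisense gene that overlaps it, Gm44079, had 0 counts in both libraries. Pparg is known to be transcribed from several starts, and the fat-restricted form Pparg2 begins at a start of its own inside the gene, the first base of the transcript Pparg-201. The bases before that start are printed because Pparg2 is the form that marks fat cells, with TTGCNNAA and CCAAT matches in capitals.
Pparg, chr6:115421816-115422065, plus strand: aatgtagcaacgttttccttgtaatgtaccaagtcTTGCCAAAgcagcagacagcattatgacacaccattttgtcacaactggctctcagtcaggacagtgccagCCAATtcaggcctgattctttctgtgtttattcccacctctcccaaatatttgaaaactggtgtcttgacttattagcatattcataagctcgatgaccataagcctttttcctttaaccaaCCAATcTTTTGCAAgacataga
TTGCCAAA began 215 bases and TTTTGCAA, a match on the other strand, began 16 bases before the start, and CCAAT began 144 and 22 bases before it. The alignment-based table gave Pparg-201 62.0 counts, with a posterior SD of the estimate of 18.6, and 46.1% of the gene's TPM in replicate 1, against 0 counts (posterior SD 12.2) in replicate 2. The reads-based table gave it 0 counts in replicate 1 and 19.8 counts, or 19.9% of the gene's TPM, in replicate 2. The tables put the Pparg2 start in opposite libraries, so neither direction is given for it.

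RefSeq windows of 250 bases before a start were found for 8 of the 10 genes, 11 windows in all, and not for Cidea and Fabp4. They were searched on both strands for 7 motifs, which may overlap each other, and the shares of all 32851 windows of the same length are given beside each. DR1, the direct repeat of AGGTCA with 1 base between, which the receptor pair of Pparg and Rxra binds, was in none of the 11 and in 0.033% of all windows, and AGGTCA alone in 2 of 11 and 14.0%. TTGCNNAA was in 4 of 11 windows and 9.56% of all windows. The letters CCAAT were in 3 of 11 and 33.9%, GGGCGG, known as the GC box, in 4 of 11 and 32.7%, TATAAA in 1 of 11 and 12.4%, and TGACGT in 1 of 11 and 6.47%. Of the 11 windows, 6 held no annotated exon of their own gene, and in the others the exon bases were searched too. Several windows belong to the same gene, a match is a run of letters and not a measured site, and none of these counts was tested.

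**Figure D3:**
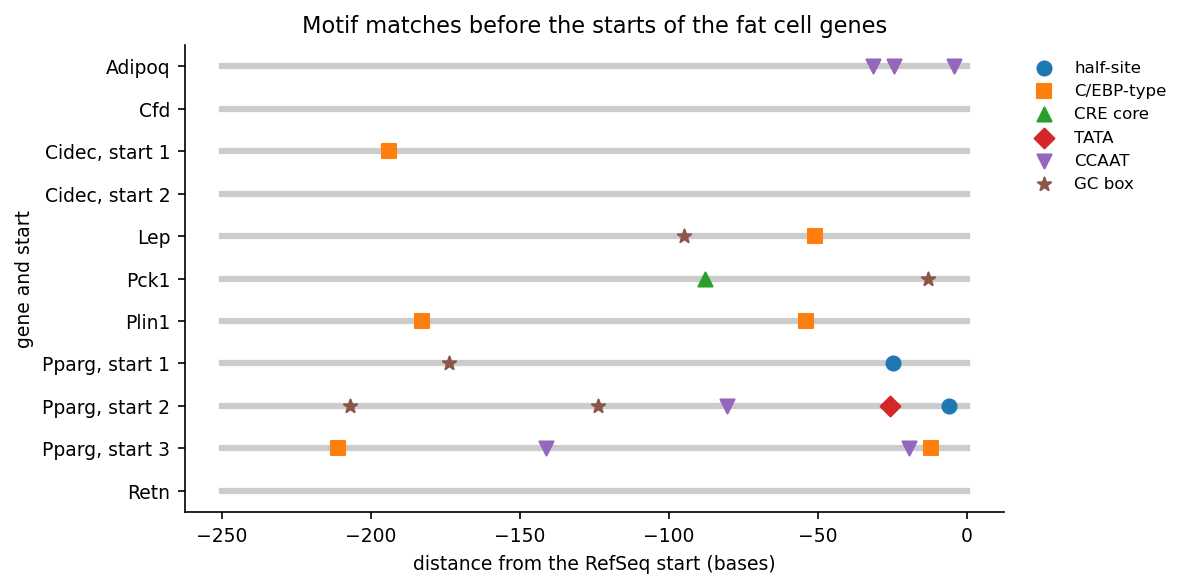
Position of each motif match (symbols) in the windows before the RefSeq starts of the fat cell genes, as distance from the start in bases, with 1 grey line per window. TTGCNNAA (squares, C/EBP-type) lies in windows of Cidec, Lep, Plin1 and Pparg, and CCAAT (downward triangles) in windows of Adipoq and Pparg.

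Transcript use was not part of how the genes were chosen. Cidea has 1 annotated transcript, and for the other 9 the leading transcript, the one with the highest TPM summed over the libraries, held a median of 84.8% of the gene's TPM in replicate 1 and 86.0% in replicate 2. Fabp4-201, Retn-201, Pck1-201, Adipoq-201 and Cfd-201 led in both libraries, with 98.1%, 97.6%, 92.3%, 89.0% and 84.8% in replicate 1 and 98.8%, 100%, 86.9%, 100% and 83.8% in replicate 2. The intron-retaining Fabp4-202 took 302 counts in replicate 1 and 137 in replicate 2 in the alignment-based table, and 1112 in replicate 1 and 716 in replicate 2 in the reads-based one. Plin1-206 held 53.1% in replicate 1 and 58.2% in replicate 2, and Lep-201 65.6% in replicate 1 and 58.8% in replicate 2.

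Of the droplet genes with several transcripts, Cidec had the wider gap between the libraries. Its transcripts Cidec-202 (1720 bases) and Cidec-201 (1703 bases), with 6 exons each, begin and end within a few bases of each other. Cidec-202 had 381 counts (posterior SD 135) and Cidec-201 320 counts (posterior SD 131) in replicate 1, while in replicate 2 they had 65.2 (posterior SD 8.49) and 0 (posterior SD 8.13). The posterior SDs in replicate 1 are large beside the counts, while that of the gene's total of 755 was 0. Cidec-202 held 40.0% of the gene's TPM in replicate 1 and 86.0% in replicate 2 in the alignment-based table, and 26.0% in replicate 1 and 80.2% in replicate 2 in the reads-based one. For Adipoq the reads-based table gave Adipoq-201 54.4% in replicate 1 and 68.6% in replicate 2, well below the alignment-based shares. TPM levels were mostly higher in the reads-based table, as for Adipoq at 45.3 TPM in replicate 1 against 4.25 TPM in replicate 2. Apart from Retn, the members' ratios between the libraries depended little on the table. Reads-based ratios were 8.49-fold for Adipoq, 14.5-fold for Lep, 11.4-fold for Cidec, 20.7-fold for Pck1 and 1.97-fold for Pparg.

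**Figure D4:**
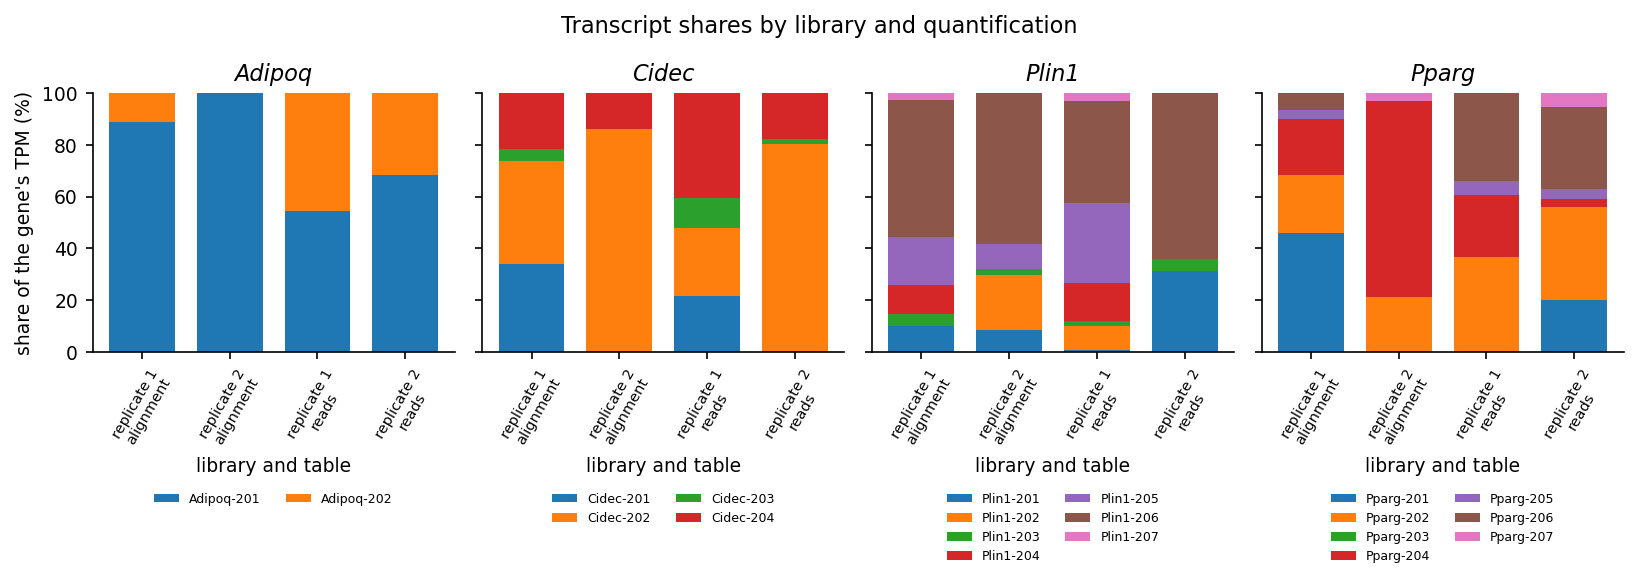
Share of a gene's TPM (%) held by each annotated transcript (colours) of Adipoq, Cidec, Plin1 and Pparg in the replicate 1 and replicate 2 libraries, first by the alignment-based and then by the reads-based table. Adipoq-201 leads in every Adipoq bar, Cidec-202 takes 86.0% in replicate 2 by alignment, and Pparg-201 takes 46.1% in replicate 1 by alignment but 0 by reads.

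Other genes known from mature fat cells were on a list of 10, of which 9 had a mean count of at least 10. All 9 were over 2-fold higher in replicate 1, beside 3.09% of all 14996 genes. Their log2 ratios were 1.16 to 4.73, with a median of 2.54 (0.002 over all 14996 genes). The list summed to 19.6 TPM in replicate 1 against 5.53 TPM in replicate 2. It was chosen with earlier results of these data known, so these values are a description and not an independent test. Hcar1, the lactate receptor that restrains fat breakdown, had 63 counts in replicate 1 against 2 in replicate 2, or 33.0-fold (8.77 to 279). The reads-based table gave it 66 in replicate 1 against 4 in replicate 2, a log2 ratio of 3.94 where the alignment-based one was 4.73. Lgals12, a galectin of lipid droplets, had 124 counts in replicate 1 and 15 in replicate 2 (log2 ratio 3.07). Acvr1c, an activin-type receptor of fat cells, had 174 in replicate 1 and 22 in replicate 2 (3.02), and Slc36a2, an amino acid transporter, 96.9 in replicate 1 and 16.2 in replicate 2 (2.63). Hcar2, the tenth gene, had 9 counts in replicate 1 and 1 in replicate 2 and is named only because it was left out of the median. The most abundant of the list were Aoc3, an amine oxidase, at 5.80 TPM in replicate 1 against 1.84 TPM in replicate 2 (1.64), and Pnpla3, a lipase relative, at 2.88 TPM in replicate 1 against 1.48 TPM in replicate 2 (1.25).

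The list of lipid droplet protein genes did not share that pattern. Of 8 droplet protein genes, none was over 2-fold higher in replicate 1, 1 was over 2-fold higher in replicate 2 and 7 lay within 2-fold. Plin4, the most abundant perilipin here, was at 154 TPM in replicate 1 against 114 TPM in replicate 2, and Fitm1, a droplet-forming protein of muscle, at 109 TPM in replicate 1 against 117 TPM in replicate 2. Plin5, the perilipin of oxidative muscle, was lower in replicate 1, at 4.39 TPM against 17.1 TPM in replicate 2 (log2 ratio -1.97). Plin3 and Fitm2 had log2 ratios of -0.67 and -0.64. Perilipin 1 was higher in replicate 1 and perilipin 5 in replicate 2.

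Triglyceride breakdown genes had a median log2 ratio of -0.18, with 2 of 8 over 2-fold higher in replicate 1 and none in replicate 2. Those 2 were Pde3b, the phosphodiesterase through which insulin lowers lipolysis (1.06), and Adrb3, the beta-3 adrenergic receptor of fat cells, with 35 counts in replicate 1 and 4 in replicate 2, named after its values were seen. Lipe, hormone-sensitive lipase, was at 0.94, Pnpla2, the first lipase of the pathway, at -0.58, its co-activator Abhd5 at -0.18 and its inhibitor G0s2 at -0.30. Triglyceride assembly genes had a median of 0.19, with none of 9 over 2-fold higher in replicate 1 and 1 in replicate 2. That gene was Dgat2, a final enzyme of triglyceride synthesis, with 332 counts in replicate 1 and 1900 in replicate 2 (-2.45). Pcx (pyruvate carboxylase) was at 0.86, Gpd1 at 0.40, the phosphatidate phosphatase Lpin1 at 0.38, Acsl1 (fatty acid activation) at -0.79 and Gpat3 at -0.87.

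Fatty acid synthesis genes were over 2-fold higher in replicate 1 for 3 of 10, beside 3.09% of all genes. None was over 2-fold higher in replicate 2, beside 4.63%, and the median log2 ratio was 0.58. Fasn, fatty acid synthase, was 2.83-fold (2.65 to 3.02) higher, at 3245 counts in replicate 1 against 1203 in replicate 2, and the log2 ratio was 1.45 for the citrate carrier Slc25a1 and 1.09 for the desaturase Scd1. Thrsp (0.89), Me1 (0.43) and Mlxipl (-0.09) lay within 2-fold. Among 11 transcription factors of fat cell differentiation, 1 was over 2-fold higher in each library and the median was 0.21. Cebpa, the C/EBP factor of mature fat cells, was at 5.66 TPM in replicate 1 against 1.57 TPM in replicate 2 (1.94), a larger ratio than that of Pparg. The early factors Cebpb (0.02) and Cebpd (-0.33), the receptor partner Rxra (0.24) and Nr1h3 (0.42) lay within 2-fold. Ppargc1a, a co-activator of mitochondrial genes in oxidative tissue, was lower in replicate 1, with 900 counts against 2591 in replicate 2 (-1.46).

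Of 12 other secreted factors of fat tissue, 4 were over 2-fold higher in replicate 1, beside 3.09% of all genes. In replicate 2, 2 were over 2-fold higher, beside 4.63%, and 6 lay within 2-fold (median 0.59). Apoe was at 43.9 TPM in replicate 1 against 19.2 TPM in replicate 2 (1.21) and Lcn2 at 1.44 TPM in replicate 1 against 0.54 TPM in replicate 2 (1.40). Lpl, lipoprotein lipase, which muscle makes too, was at 42.0 TPM in replicate 1 against 158 TPM in replicate 2 (-1.97). The 4 receptors of adiponectin and leptin all lay within 2-fold: Adipor1 (0.10), Adipor2 (0.16), Cdh13 (-0.01) and Lepr (-0.19). Adipor1 was at 70.3 TPM in replicate 1 against 65.1 TPM in replicate 2. Lepr was the scarcest, at 0.52 TPM in replicate 1 against 0.86 TPM in replicate 2.

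Close relatives of the fat cell genes had other ratios. Of 8 relatives, 6 had a mean count of at least 10, with a median log2 ratio of -0.31 (-1.35 at a mean count of at least 100), 1 over 2-fold higher in replicate 1 and 2 in replicate 2. Fabp3, the fatty acid carrier of muscle, was at 63.0 TPM in replicate 1 against 375 TPM in replicate 2 (-2.58), so that the muscle carrier differed by more than Fabp4 and in the other direction. Ppara, the receptor relative that drives fatty acid oxidation, had 65 counts in replicate 1 and 602 in replicate 2 (-3.13), while Ppard was at -0.12. Retnla, a relative of resistin, had 66 counts in replicate 1 and 28 in replicate 2 (1.29), and Fabp5 was at -0.50. Cideb had 0 counts in replicate 1 and 1 in replicate 2.

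Brown and beige fat markers had no common direction. Of 11, 6 had a mean count of at least 10, with 1 over 2-fold higher in replicate 1, 2 in replicate 2 and a median of 0.17 (0.60 with no filter, -0.26 at a mean count of at least 100). Zic1, a factor of brown fat lineages, had 14 counts in replicate 1 and 54 in replicate 2 (-1.84), and Dio2, the enzyme that activates thyroid hormone, 34 in replicate 1 and 101 in replicate 2 (-1.49). Prdm16 (0.60) and Tmem26 (0.83) lay within 2-fold, as did Cox8b, a respiratory subunit that muscle also makes, at 635 TPM in replicate 1 against 754 TPM in replicate 2 (-0.26). Elovl3 and Lhx8 had 1 count each in replicate 1 and 0 in replicate 2, and Ucp1 had 0 in both.

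Marker lists of other cells and of slow fibres also differed between the libraries, and their part in the fat cell result was not tested. Red blood cell markers were over 2-fold higher in replicate 1 for all 6 that averaged 10 counts, of 7 listed, beside 3.09% of all genes. Their median log2 ratio was 2.53, with sums of 2445 TPM in replicate 1 against 425 TPM in replicate 2. Hbb-bs and Hba-a1, which encode globin chains, were at 865 and 815 TPM in replicate 1 against 156 and 137 TPM in replicate 2. Schwann cell and myelin markers were over 2-fold higher in replicate 1 for 8 of 10, beside the same 3.09%. Their median was 1.35, with sums of 128 TPM in replicate 1 against 39.5 TPM in replicate 2, and no marker at 0. Mbp, myelin basic protein, was at 39.2 TPM in replicate 1 against 7.57 TPM in replicate 2.

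Progenitor markers did not differ in this way. The 9 fibro-adipogenic progenitor markers, which mark the cells from which fat cells in muscle arise, all lay within 2-fold (median -0.18, but 0.15 from TPM with a pseudocount of 0.1), with sums of 408 TPM in replicate 1 against 330 TPM in replicate 2, among them Dcn (0.14) and Gsn (0.52). The 8 macrophage markers also lay within 2-fold (median -0.06), with Lyz2 at 12.1 TPM in replicate 1 against 12.5 TPM in replicate 2 and Mrc1 at 4.05 TPM in replicate 1 against 5.12 TPM in replicate 2. Lymphocyte markers were over 2-fold higher in replicate 2 for 5 of 6, of 9 listed (median -5.13), beside 4.63% of all genes. They summed to 42.6 TPM in replicate 1 against 56.6 TPM in replicate 2, of which Ighm gave 42.3 TPM in replicate 1 and 50.9 TPM in replicate 2. Cd3g and Rag1, named after their values were seen, had 0 counts in replicate 1, against 22 and 289 in replicate 2. Cd8a had 1 count in replicate 1 against 123 in replicate 2. The reads-based table gave Rag1 0 counts in replicate 1 and 323 in replicate 2, but Cd8a 16 counts in replicate 1 and 164 in replicate 2. From TPM with a pseudocount of 1 the median of the lymphocyte list was -0.91. The fibre markers had a median of 0.39, with 9 of 10 within 2-fold. The remaining marker, Mb, was higher in replicate 2, at a log2 ratio of -4.98. Of the 3 of 6 epithelial markers that averaged 10 counts, 1 was over 2-fold higher in replicate 1 and 2 in replicate 2. The epithelial sums were 0.32 TPM in replicate 1 against 1.07 TPM in replicate 2. Cdh1, an adhesion protein named after its values were seen, had 24 counts in replicate 1 and 10 in replicate 2 (1.29). Krt8 and Krt18, the keratins of simple epithelia, had 2 and 3 counts in replicate 1 and 23.8 and 22 in replicate 2. Krt5 and Krt14 had 0 in replicate 1 and only 4 and 1 in replicate 2, and Epcam had 0 in both.

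**Figure D5:**
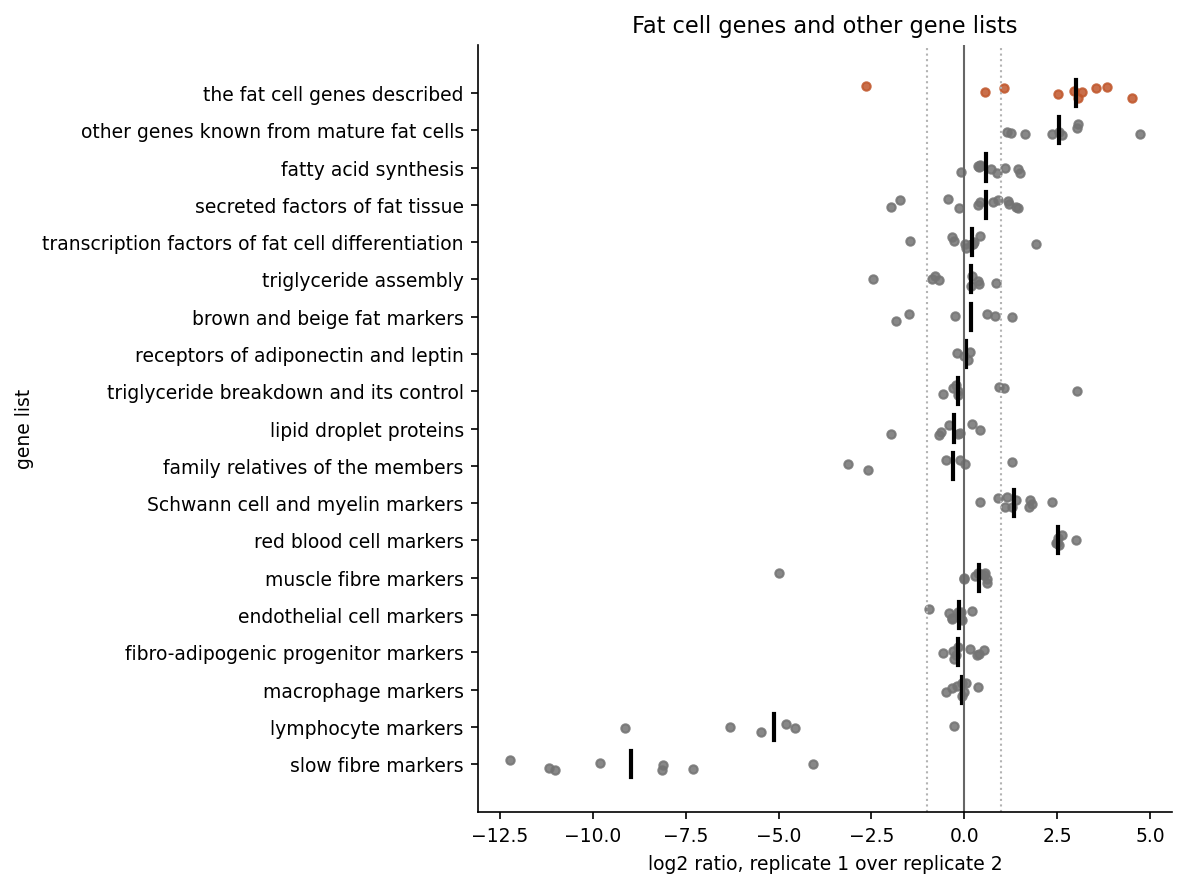
Log2 ratio, replicate 1 over replicate 2, of the fat cell genes (top row, coloured points) and of the gene lists (grey points). Genes whose count averaged 10 or more are shown, with a black bar at each list's median and dotted lines at a 2-fold difference. The epithelial list is not drawn. The fat cell genes (median 3.01), other mature fat cell genes (2.54) and red blood cell markers (2.53) lie to the right, and slow fibre (-8.97) and lymphocyte markers (-5.13) to the left.

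The protein-coding genes outside the 10 whose ratio was nearest to their median, at a mean count of at least 100, were Gm20425, Pagr1a, Cdo1, Gm4841, Hbb-bt and Prkar2b. This likeness is a single ratio over 2 libraries. Cdo1, cysteine dioxygenase, had 445 counts in replicate 1 and 62 in replicate 2 (log2 ratio 2.90) and Prkar2b, a regulatory subunit of protein kinase A, 294 in replicate 1 and 50 in replicate 2 (2.61). Hbb-bt, a globin gene, was at 2.63 and Gm4841 at 3.37. Gm20425 and Pagr1a are uncertain, because their ratios of 2.98 and 2.92 were 0.53 and 5.67 in the reads-based table. That table gave lower ratios for Gm4841 (2.58), Cdo1 (2.39) and Hbb-bt (2.58), and a higher one for Prkar2b (2.69).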

How the data were processed

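The authors deposited 3 tables a library: genes and transcripts quantified from transcriptome alignments, and transcripts quantified from the reads themselves. The build was mm10 and the annotation GENCODE M21, per the deposited descriptions, while the program is not given in the sources used here. The expected counts that the authors deposited are not normalised and can hold fractions. The deposited TPM values were scaled by the authors over all rows including spike-ins. The posterior SD of a count, a score for the certainty of read assignment, and the percent of a gene's TPM held by a transcript are also the authors', per the file headers. The interval bounds of TPM, deposited as a further score, were not used.

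Members and lists were chosen with earlier results of these data known. Symbols came from the transcript identifiers for 55450 of 55536 genes. Expected counts were rounded and scaled by TMM in edgeR 4.0.16 (R 4.3.3) with a prior count of 0.5, and by DESeq2 1.42.0 size factors as an alternative. Spike-in rows drew 243709 counts in replicate 1 and 194846 in replicate 2 and stayed out of scaling, as did 3 counts of other rows in replicate 1. Fold ratios are of scaled counts. List counts and medians used genes whose count averaged 10 or more. Promoter sequences came from RefSeq (GRCm38.p6), and motif positions count back from the start. Printed sequences were cut before the gene's own exons, but motifs were searched in the whole 250 bases. Python 3.11.15, pandas 2.3.3, numpy 2.4.6, scipy 1.17.1 and matplotlib 3.10.9 were used. The TMM-scaled log2 ratio was tested on simulated counts, for genes averaging 100 counts or more. The other steps were not tested in this way. The simulated libraries held counting error only and shared the same composition apart from a set of changed genes. The test thus does not cover the differences in composition between these libraries. Because the mice are hybrids, reads of the castaneus alleles were aligned to mm10, and the effect of that was not tested.

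Named genes were the 10 members, and of each list of fat-related genes the 4 largest ratios among genes averaging 20 counts or more, plus the 2 highest mean TPM. Of each other list the 2 highest mean TPM were named, and the 6 protein-coding genes nearest the members' median ratio. Genes given for a count of 0 in a library, and those marked as named after their values were seen, were outside this rule. The values of some genes that this rule names are not reported here. Of the 19 lists, 10 were of fat-related genes, and all 168 listed genes had a row. Alternatives covered scaling, unit, pseudocount, prior count, count filter, fold, detection threshold, the table made from the reads, and leaving out either library.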

Additional observations from a re-analysis of the deposited data

How the results depend on the processing

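The members' median log2 ratio of 3.01 was 2.62 with spike-in scaling, which moved the median of all genes to -0.39, and 2.19 from TPM with a pseudocount of 1. That pseudocount also took the median of the other mature fat cell genes to 0.93. Of 80 recomputed member ratios, 14 left their counting interval and 0 changed sign, with ranges of 3.59 to 4.55 for Pck1, 1.86 to 3.87 for Lep, 0.16 to 0.59 for Fabp4, 0.68 to 1.12 for Pparg and -3.02 to -0.74 for Cidea. Pparg thus lost its 2-fold difference under spike-in scaling, TPM with a pseudocount of 1 and the reads-based table, each of which left 7 members over 2-fold. Spike-in scaling turned the small positive medians of triglyceride assembly (-0.20), transcription factors (-0.19), brown and beige markers (-0.22) and receptors (-0.34) negative, and TPM with a pseudocount of 0.1 or 1 turned the progenitor median positive (0.15 and 0.11). The medians of the relatives (-1.35) and of brown and beige markers (-0.26) moved when genes averaging under 100 counts were dropped, and that of brown and beige markers was 0.60 with no filter. A pseudocount of 1 took the Schwann, lymphocyte and epithelial medians to 0.82, -0.91 and -0.43. The slow fibre median of -8.97 was -7.48 with that pseudocount and -8.17 by the reads-based table. In the latter Myh7 and Atp2a2 moved most, from -11.02 and -4.06 to -8.15 and -2.21. Every slow fibre marker was still higher in replicate 2 there. By the reads-based table the mean summed TPM was 373, against 245, and Pck1 was below Adipoq in replicate 1. Members detected in both libraries numbered 7, and 2 at a TPM of at least 5. With a library left out they numbered 7 to 9, the summed TPM was 116 to 373 and the median leading transcript share 84.8% to 86.0%. That share was 73.6% in the reads-based table. No paired analysis was possible because there is 1 group. Depth limits Cidea and Lep most, at 4 and 17 counts in their lower library.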
